A study of Mus musculus with 6 samples.

Results

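A group of 10 genes of the Bcl2 family, chosen by name as regulators of cell survival and death, was examined in sorted splenic myeloid cells of mice treated with rapamycin or PBS. For each gene the probe set that carries exactly 1 gene symbol was taken, and the brightest by mean over all 6 arrays where a gene has several. Of the 10 genes, 9 were measured, each by 1 probe set, among 19938 genes with a value; Bax is not analysed here. Expression was read on arrays from cells labelled as MDSCs (myeloid-derived suppressor cells), an immature population that restrains T cells. All 6 mice were B6D2F1/J recipients that had been lethally irradiated and given B6 bone marrow freed of T cells. The labels allow for grafts with and without added B6 spleen cells, and do not say which these mice had. The rapamycin group (3 mice) was injected with 1.5 mg/kg of this mTOR inhibitor on alternate days up to day 10 after transplantation, the PBS group (3 mice) with PBS on the same schedule, and CD11b-positive cells were then taken from the spleen with magnetic beads. The labels used here give no ages.

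Proteins of the Bcl2 family decide whether the outer membrane of the mitochondria is opened, the step that releases cytochrome c and starts the caspases. Survival proteins (Mcl1, Bcl2 and Bcl-xL, the product of Bcl2l1) hold the pore-forming effectors Bax and Bak in check, and the BH3-only proteins (Bim from Bcl2l11, Bid, Puma from Bbc3, Noxa from Pmaip1, and Bmf) bind and oppose the survival proteins or engage the effectors. Neutrophils are short-lived cells that depend on Mcl1, and Noxa binds Mcl1 in preference to most other survival proteins. Much of this control acts on the proteins, through cleavage, phosphorylation and degradation, which an RNA array does not read.

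Bcl2l1, which encodes the survival protein Bcl-xL, rose with rapamycin by 1.35-fold. Pmaip1, which encodes the death-promoting Noxa, fell, with PBS 1.24-fold above rapamycin. The other 7 measured genes did not pass the test: Mcl1, Bcl2, Bak1, Bcl2l11, Bid, Bbc3 and Bmf. Over all genes tested with limma, 11.3% were called at an adjusted p under 0.05 (4.42% higher and 6.92% lower), against 2 of these 9, which is 22.2% of a very short list. Lower genes made up 61.0% of all calls in the values as deposited, 68.8% after a further quantile normalization, 71.0% with the array medians aligned, and 44.7% with the medians of the tested genes aligned, a scaling chosen after seeing the data. Bcl2l1 and Pmaip1 kept both their direction and their call under each of these scalings. The median log2 change of the 9 was -0.045, beside -0.017 over the 13965 genes tested, and their median absolute log2 change was 0.12, beside 0.090. The rapamycin arrays all lay above the PBS arrays, or all below, for 6 of the 9 (2 above, 4 below), where this held for 32.0% of all genes tested (12.6% above, 19.4% below). At an unadjusted p under 0.05 stood 4 of the 9 (2 higher, Bcl2l1 and Bak1, and 2 lower, Pmaip1 and Bmf), beside 28.2% of all genes tested (1578 genes higher and 2363 lower). All log2 changes below are rapamycin minus PBS, with limma's standard error (SE), its p adjusted over all genes tested, and 95% intervals that are not adjusted for the number of genes.

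**Figure D1:**
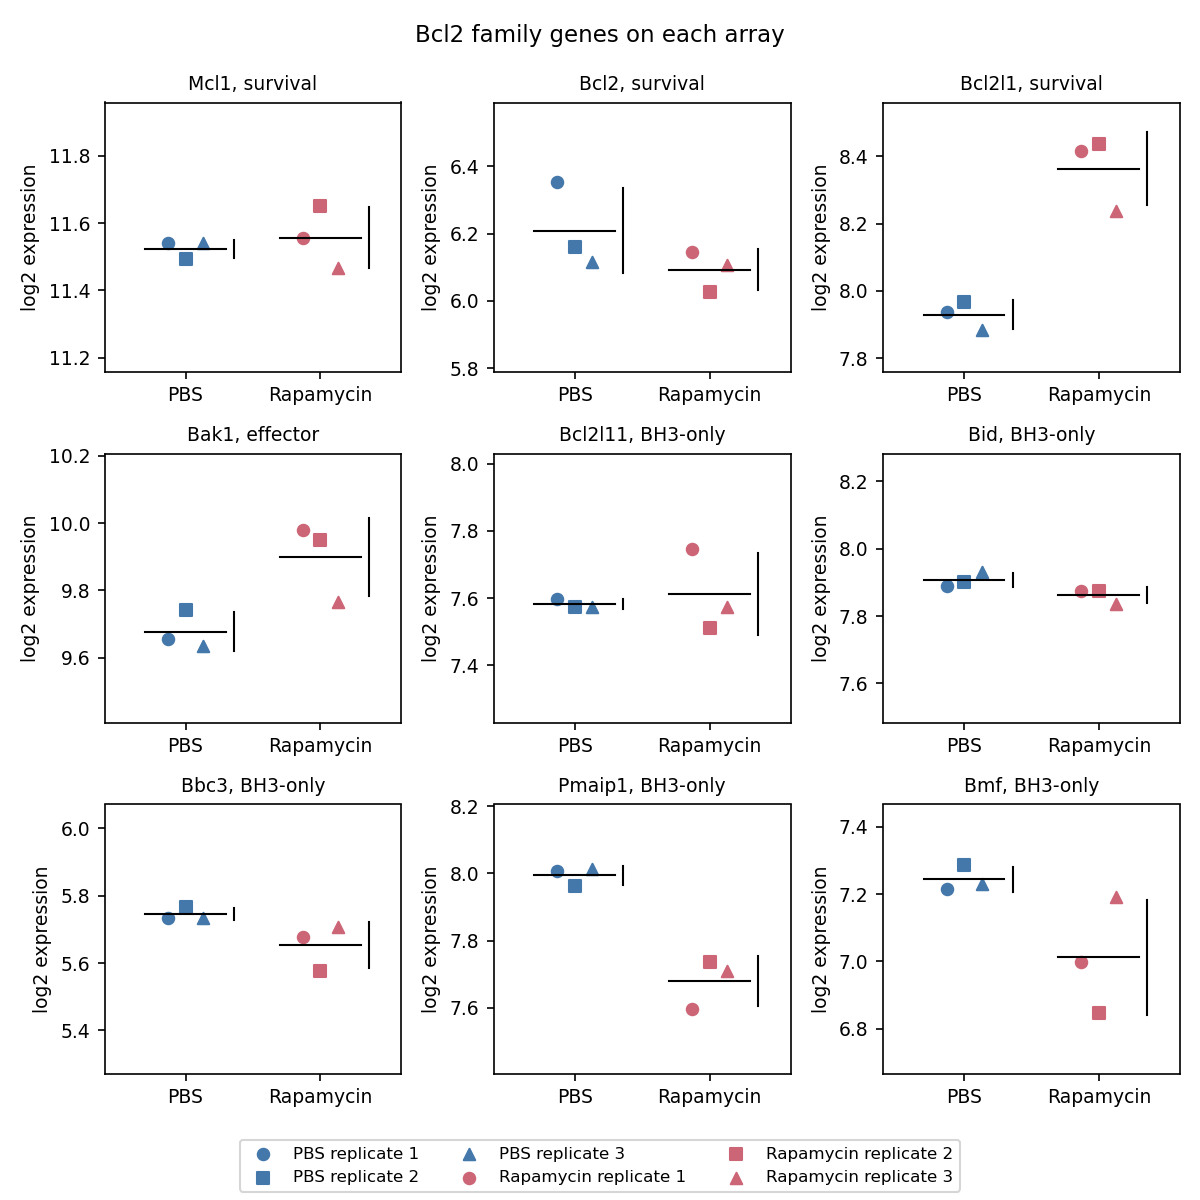
Log2 expression of the 9 measured genes on each array, in panels that all span 0.8 log2 units; points are mice, with the replicate number given by the shape, horizontal lines are group means and vertical lines ± SD (n = 3). The Bcl2l1 and Pmaip1 values of the groups lie well apart, and those of Mcl1, Bcl2 and Bcl2l11 overlap.

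The sorted cells carried myeloid transcripts: Itgam, the gene of CD11b, ran from 12.22 to 12.48 and Ly6g, a neutrophil surface marker, from 11.66 to 12.36 (log2, all 6 arrays), and neither passed the test. The NK cell gene Ncr1 lay under the brightness threshold of log2 4.72 (30th percentile among probe sets with a name), and the T cell gene Cd3e between 6.0 and 6.56. Correlations across genes were between 0.9958 and 0.9977 within a group and between 0.9895 and 0.9930 across groups. In this bulk RNA, a smaller share of cells that express a gene and less of its RNA in each cell cannot be told apart.

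Among the survival genes, Bcl2l1 (probe set 10488655) stood at 7.94, 7.97 and 7.88 in the PBS mice and at 8.41, 8.44 and 8.24 in the rapamycin mice (log2). Every rapamycin array was above every PBS array, and rapamycin replicate 3 lay nearest to the PBS group. The means were 7.93 ± 0.042 and 8.36 ± 0.11 (SD, n = 3 each), which gives a change of 0.43 ± 0.063 on the log2 scale (SE; 95% interval 0.28 to 0.58) with limma's adjusted p of 0.0105. With any 1 array left out the log2 change stayed between 0.40 and 0.50. Dropping PBS replicate 2, PBS replicate 3 or rapamycin replicate 1 took Bcl2l1 just past the threshold (adjusted p 0.0550, 0.0504 and 0.0527), in fits that also had fewer samples.

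The Bcl2l1 gene has 3 start sites in the RefSeq table, and its probe set gives 1 value, so the array does not tell the starts apart. The 250 bases before each are printed 5′ to 3′ from RefSeq's GRCm38.p6 assembly, minus strand, because this is the family gene that rose; they are in lower case throughout since no searched motif was found in them.
Bcl2l1 chr2:152828490-152828739: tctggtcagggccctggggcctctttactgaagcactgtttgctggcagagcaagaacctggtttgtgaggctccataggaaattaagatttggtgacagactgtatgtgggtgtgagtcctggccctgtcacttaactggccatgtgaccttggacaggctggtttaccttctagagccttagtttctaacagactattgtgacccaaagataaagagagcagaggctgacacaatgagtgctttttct
Bcl2l1 chr2:152830718-152830967: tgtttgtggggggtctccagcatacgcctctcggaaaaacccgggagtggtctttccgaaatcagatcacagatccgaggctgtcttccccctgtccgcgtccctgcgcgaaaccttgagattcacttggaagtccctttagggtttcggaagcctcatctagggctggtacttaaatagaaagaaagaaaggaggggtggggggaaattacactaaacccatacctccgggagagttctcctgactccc
Bcl2l1 chr2:152831729-152831978: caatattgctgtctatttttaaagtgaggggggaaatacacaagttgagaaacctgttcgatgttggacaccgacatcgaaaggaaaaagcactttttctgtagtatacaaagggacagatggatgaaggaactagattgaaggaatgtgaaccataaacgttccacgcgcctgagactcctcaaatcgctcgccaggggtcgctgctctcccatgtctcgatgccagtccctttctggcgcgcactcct
The motifs searched on both strands were TTCNNNGAA of the Stat factors, TTANGTAA of Nfil3, the E-box CACGTG bound by Myc, and TGTTTAC of the Foxo factors. They stood in 7.02%, 2.06%, 6.02% and 3.17% of all 32851 promoter windows of this length. These motifs were chosen with the expression results known.

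Mcl1 (probe set 10494306), the short-lived survival protein on which neutrophils depend, read 11.54, 11.49 and 11.54 with PBS and 11.55, 11.65 and 11.47 with rapamycin (log2). The groups overlapped, with the highest and the lowest of the 6 values both among the rapamycin mice. The log2 change was 0.033 ± 0.056 (limma adjusted p 0.738), and its 95% interval ran from -0.099 to 0.17. Bcl2 (probe set 10357043), the founding survival protein, known for its role in lymphocytes, read 6.35, 6.16 and 6.12 with PBS and 6.15, 6.03 and 6.11 with rapamycin. PBS replicate 1 was the highest array, and the other 5 lay within a narrow range in which the groups overlapped. The log2 change of Bcl2 was -0.12 ± 0.072 (limma adjusted p 0.335; 95% interval -0.28 to 0.052).

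Of the pore-forming effectors, Bak1 (probe set 10449303) was measured. Its values were 9.66, 9.74 and 9.63 with PBS and 9.98, 9.95 and 9.77 with rapamycin (log2). The groups did not overlap, although rapamycin replicate 3 lay just above PBS replicate 2. The log2 change of Bak1 was 0.22 ± 0.068 and did not pass the test (limma adjusted p 0.0802). Without rapamycin replicate 3 it was called at 0.29 (adjusted p 0.0315).

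Among the BH3-only genes, Pmaip1 (probe set 10456357) stood at 8.01, 7.96 and 8.01 in the PBS mice and at 7.60, 7.74 and 7.71 in the rapamycin mice (log2). All rapamycin arrays were below all PBS arrays, rapamycin replicate 1 the furthest. The means were 7.99 ± 0.028 and 7.68 ± 0.075 (SD, n = 3 each), which gives a change of -0.31 ± 0.052 on the log2 scale (SE; 95% interval -0.44 to -0.19) with limma's adjusted p of 0.0145. Leaving out any 1 array gave log2 changes between -0.34 and -0.27. Dropping any single PBS array took Pmaip1 past the threshold, with adjusted p-values of 0.0513, 0.0616 and 0.0589 for replicates 1, 2 and 3, whereas dropping a rapamycin array did not.

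Bmf (probe set 10486112), a BH3-only protein that binds the dynein light chain in resting cells, read 7.21, 7.28 and 7.23 with PBS and 7.0, 6.85 and 7.19 with rapamycin (log2). The groups did not overlap, and rapamycin replicate 3 again lay nearest to the PBS mice. The log2 change of Bmf was -0.23 ± 0.085 and did not pass the test (limma adjusted p 0.124). Without rapamycin replicate 3 it was called at -0.32 (adjusted p 0.0341), and without rapamycin replicate 2 it was -0.15 (adjusted p 0.245).

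Bcl2l11, the gene of Bim, which binds all the main survival proteins, read 7.60, 7.57 and 7.57 with PBS and 7.75, 7.51 and 7.57 with rapamycin (log2, probe set 10475866). The PBS arrays were nearly identical, and the rapamycin arrays lay on both sides of them. The log2 change of Bcl2l11 was 0.029 ± 0.065 (limma adjusted p 0.810; 95% interval -0.12 to 0.18). Bbc3, the gene of the p53-inducible Puma, read 5.73, 5.77 and 5.73 with PBS and 5.68, 5.58 and 5.71 with rapamycin (log2, probe set 10550290). Its groups did not overlap, by a small margin, on a probe set whose mean was just under the median of all named ones (5.71). The log2 change of Bbc3 was -0.092 ± 0.050 (limma adjusted p 0.272; 95% interval -0.21 to 0.024). Bid, which Casp8 cleaves to its active form, read 7.89, 7.90 and 7.93 with PBS and 7.88, 7.88 and 7.83 with rapamycin (log2, probe set 10547531). The rapamycin values of Bid were all slightly below the PBS values, with a log2 change of -0.045 ± 0.041 (limma adjusted p 0.514; 95% interval -0.14 to 0.052).

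Bcl2l11 and Bbc3 are known targets of Foxo transcription factors, which the PI3K and Akt kinases upstream of mTOR hold out of the nucleus, and a promoter window of each holds the Foxo motif. Both windows are the 250 bases before a start site in GRCm38.p6, plus strand, 5′ to 3′, with the motif (on either strand) in capitals.
Bcl2l11 chr2:128125788-128126037: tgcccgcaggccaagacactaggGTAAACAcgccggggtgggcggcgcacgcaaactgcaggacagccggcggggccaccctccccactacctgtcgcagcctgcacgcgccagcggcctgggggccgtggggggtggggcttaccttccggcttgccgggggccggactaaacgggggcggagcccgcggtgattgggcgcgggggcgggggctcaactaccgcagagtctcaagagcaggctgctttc
Bbc3 chr7:16310011-16310260: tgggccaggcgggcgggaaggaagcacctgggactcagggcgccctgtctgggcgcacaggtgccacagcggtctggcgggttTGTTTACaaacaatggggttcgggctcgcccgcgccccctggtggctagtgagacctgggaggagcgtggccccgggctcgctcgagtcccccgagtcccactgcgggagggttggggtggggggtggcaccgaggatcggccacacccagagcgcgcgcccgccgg
Of 16 windows of 9 of the genes in the RefSeq table, Bax included, these 2 held the Foxo motif and 2 others the E-box, 1 of Bax and 1 of Bbc3. Over all 32851 windows the shares were 3.17% for the Foxo motif and 6.02% for the E-box. The 16 windows are few and not all separate, since the Bbc3 windows with the Foxo motif and with the E-box overlap. No window of Pmaip1 is among the 16, so nothing is said here of its motifs. A match describes letters and not a bound site. The expression of the Foxo genes themselves did not pass the test, with log2 changes of -0.020 for Foxo1, -0.058 for Foxo3 and -0.028 for Foxo4.

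**Figure D2:**
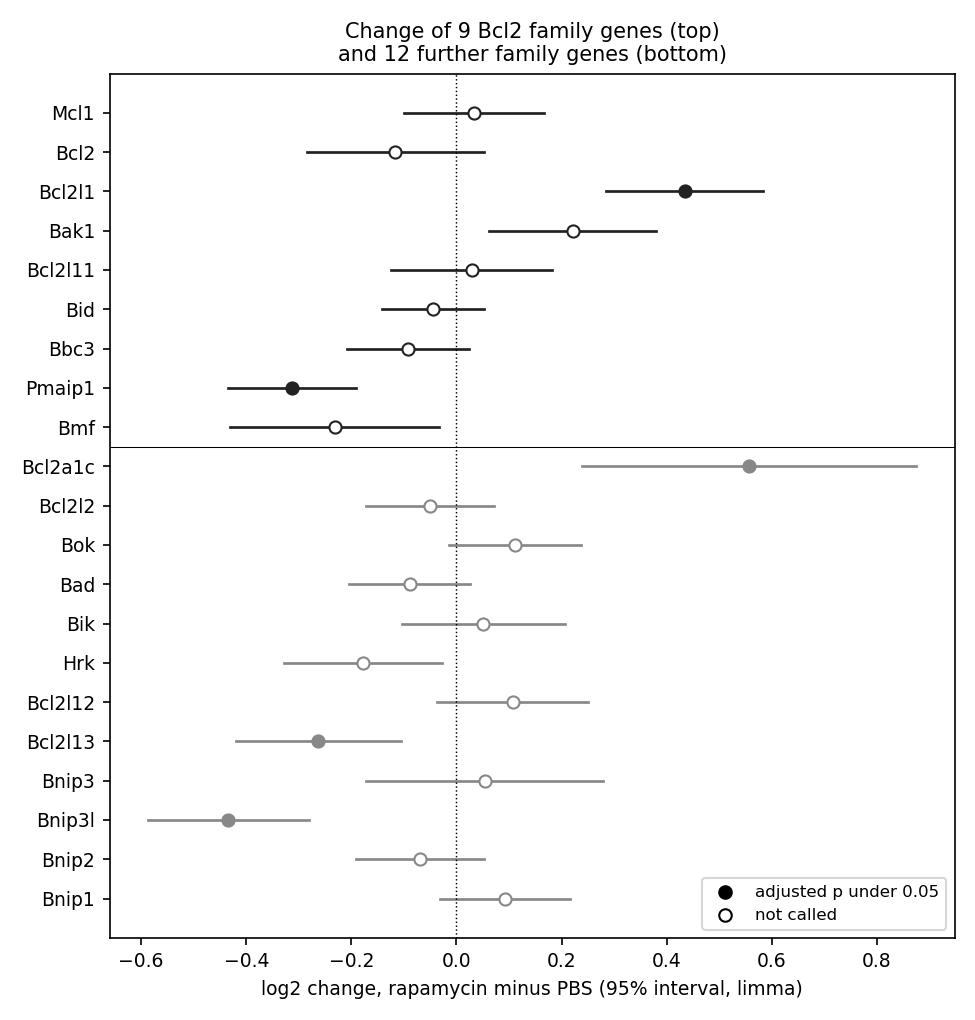
Log2 change with rapamycin (points) with limma's 95% interval (bars) for the 9 measured genes, above the line, and 12 further family genes that were tested, below it; filled points have an adjusted p under 0.05. Bcl2l1 (0.43) and Pmaip1 (-0.31) lie on opposite sides of 0, as do Bcl2a1c (0.56) and Bnip3l (-0.43).

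Rapamycin replicate 3 was the mouse nearest to the PBS group for Bcl2l1, Bak1, Bbc3 and Bmf. Replicates 1 and 2 of that group were the furthest from it for Pmaip1 and Bmf, respectively. Limma's array weights, estimated over all genes tested, were lowest for rapamycin replicate 3 (0.73) and highest for PBS replicate 2 (1.62). Without rapamycin replicate 3, 2 of the 9 genes were higher (Bcl2l1 and Bak1) and 2 lower (Pmaip1 and Bmf). Without PBS replicate 2 or PBS replicate 3, the calls of Bcl2l1 and Pmaip1 were both lost. Without PBS replicate 1 Bcl2l1 alone was called, without rapamycin replicate 1 Pmaip1 alone, and without rapamycin replicate 2 both.

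**Figure D3:**
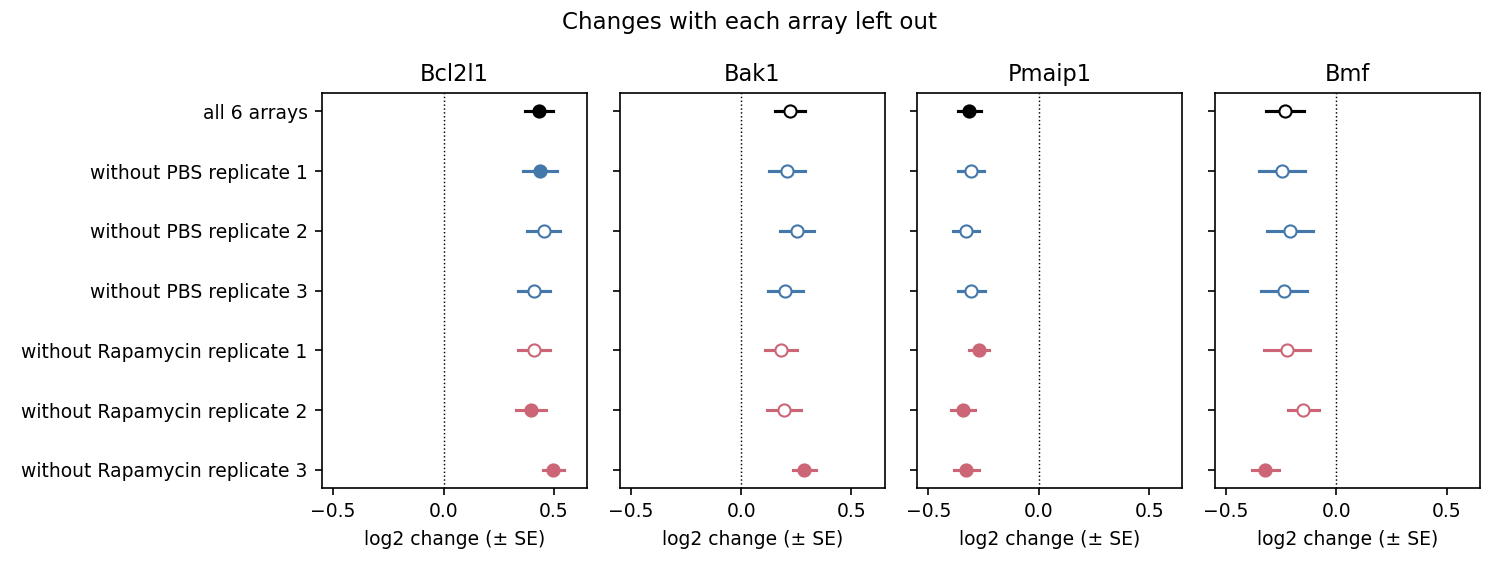
Log2 change (points, with bars of ± 1 SE) of Bcl2l1, Bak1, Pmaip1 and Bmf over all 6 arrays and with each array left out; filled points have a limma adjusted p under 0.05. The direction of each gene is the same in every fit, and which of them are called depends on the array left out.

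Of 12 further genes of the family tested, 1 rose and 2 fell while 9 missed the threshold, 25% called beside the 11.3% of all genes tested, with a median log2 change of 5.73e-05. Bcl2a1c, by name a copy in the A1 gene group, read 8.61, 8.46 and 8.18 with PBS and 9.05, 9.13 and 8.74 with rapamycin (log2). The rapamycin mice were all above the PBS mice, and the log2 change was 0.56 ± 0.14 (limma adjusted p 0.0425). The mouse A1 genes are near-identical copies, so this probe set may hold signal of its relatives, and probe sets listed under several of them were left out. Bcl2a1a, Bcl2a1b and Bcl2a1d are not analysed here. Whether Bcl2a1c itself makes a working survival protein was not examined, so its rise is not read as one of A1 protein. Bnip3l, a receptor that marks mitochondria for removal by autophagy, read 11.12, 11.20 and 11.14 with PBS and 10.61, 10.72 and 10.83 with rapamycin, a log2 change of -0.43 ± 0.065 (limma adjusted p 0.0110). Bcl2l13, a mitochondrial protein also linked to mitophagy, changed by -0.26 ± 0.067 (limma adjusted p 0.0480).

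The remaining further genes did not pass the test. These were the survival gene Bcl2l2 (Bcl-w) with a log2 change of -0.051, the effector-like Bok (0.11), and the BH3-only genes Bad (-0.089), Bik (0.051) and Hrk (-0.18; limma adjusted p 0.120). The others were Bcl2l12 (0.11), the mitophagy receptor Bnip3 (0.054), Bnip2 (-0.069) and Bnip1 (0.092). Bcl2l10, Bcl2l14 and Bcl2l15 lay under the brightness threshold and were not tested. With an array left out, Bcl2a1c was called only without rapamycin replicate 3 and Bcl2l13 only without PBS replicate 3. Adjusted over all genes with no brightness filter, Bcl2a1c (adjusted p 0.0653) and Bcl2l13 (0.0652) also missed the threshold. Bnip3l was lost without PBS replicate 2 or PBS replicate 3.

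Genes whose products bind Bcl2 proteins or set their stability gave 1 higher and 1 lower of 19 tested (median log2 change -0.057). That is 10.5% called, beside 11.3% of all genes tested. Huwe1, the ubiquitin ligase Mule that marks Mcl1 for degradation, read 8.43, 8.42 and 8.38 with PBS and 8.79, 8.67 and 8.77 with rapamycin (log2). The groups were clearly apart, with a log2 change of 0.33 ± 0.049 (limma adjusted p 0.0110). Usp9x, which removes ubiquitin from Mcl1, had a log2 change of 0.13 ± 0.047 (limma adjusted p 0.112) and did not pass the test. Vdac2, a channel of the outer mitochondrial membrane that holds Bak, fell by 0.22 ± 0.049 (limma adjusted p 0.0368). Huwe1 was no longer called when PBS replicate 2 or 3, or rapamycin replicate 1, was dropped. Vdac2 kept its call only without rapamycin replicate 3, and lost it once the medians of the tested genes were aligned (adjusted p 0.0614).

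Downstream of the membrane step, 1 of 16 tested genes of the apoptosome and the caspases rose and 1 fell (median log2 change 0.031). The share called was 12.5%, beside 11.3% of all genes tested. Casp6, an executioner caspase, read 7.91, 7.55 and 7.50 with PBS and 8.20, 8.11 and 8.45 with rapamycin (log2), a change of 0.60 ± 0.13 (limma adjusted p 0.0312). Aifm1, a mitochondrial flavoprotein released in cell death, changed by -0.34 ± 0.072 (limma adjusted p 0.0301). Cycs, which encodes cytochrome c, and Apaf1, the scaffold of the apoptosome, did not pass the test, with log2 changes of 0.26 ± 0.10 and -0.057 ± 0.042 (limma adjusted p 0.152 and 0.420). When arrays were dropped in turn, Casp6 was called only in the absence of PBS replicate 1, and Aifm1 lost its call with any array left out (adjusted p 0.0555 to 0.0972).

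On the death receptor route to Bid, 1 of 10 tested genes rose and 1 fell (median log2 change 0.036). These calls are 20% of a short list, beside 11.3% of all genes tested. The TNF receptor Tnfrsf1a rose by 0.33 ± 0.060 on the log2 scale (limma adjusted p 0.0182). Gzmb, a granzyme of cytotoxic lymphocytes placed in this list, read 6.76, 6.54 and 6.73 with PBS and 6.14, 5.73 and 5.88 with rapamycin. Its log2 change was -0.76 ± 0.11 (limma adjusted p 0.0102). Casp8, which cleaves Bid, did not pass the test, with a log2 change of 0.072 ± 0.081 (limma adjusted p 0.605). Tnfrsf1a kept its call only without rapamycin replicate 3, and Gzmb lost it without PBS replicate 2 or PBS replicate 3.

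The p53 list holds regulators and other targets of p53, a factor that can induce Bbc3 and Pmaip1. Of its 17 tested genes, 0 rose and 3 fell by limma's test while 14 missed its threshold (median log2 change -0.090). Whether p53 had a part in the Pmaip1 change was not tested. The calls were 17.6% of the list, beside 11.3% of all genes tested. At an unadjusted p under 0.05 stood 28.2% of all genes tested, 1578 of them higher and 2363 lower. There the p53 list had 1 gene higher and 6 lower, the partners 3 and 4, and the caspases and apoptosome 4 and 2. The death receptor route had 3 and 2, the further family genes 1 and 3, and the list of other transcriptional regulators 2 and 1. Perp, a p53-induced membrane protein, read 5.68, 5.59 and 5.77 with PBS and 4.82, 5.19 and 5.13 with rapamycin (log2), a change of -0.63 ± 0.10 (limma adjusted p 0.0139). Rrm2b, a ribonucleotide reductase subunit, changed by -0.32 ± 0.062 (limma adjusted p 0.0223), and Xpc, a sensor of DNA damage, by -0.26 ± 0.054 (limma adjusted p 0.0273). Mdm2, the ubiquitin ligase of p53, did not pass the test, with a log2 change of -0.10 ± 0.055 (limma adjusted p 0.270). Perp was lost without PBS replicate 1, 2 or 3, Rrm2b was kept only without PBS replicate 3, and Xpc was lost with any array left out (adjusted p 0.0512 to 0.0994). Cdkn1a and the p53 gene itself are not analysed here.

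A further list holds other transcription factors known to act on Bcl2 family genes, and also Chac1 and Trib3, which are not transcription factors. Among its 18 tested genes, 2 rose and 1 fell (median log2 change -0.021). The calls made up 16.7%, beside 11.3% of all genes tested. Myc, which can sensitise cells to death, read 8.29, 7.88 and 7.90 with PBS and 8.95, 8.66 and 8.59 with rapamycin (log2), a change of 0.71 ± 0.13 (limma adjusted p 0.0209). Atf4, the factor of the integrated stress response and a known inducer of Pmaip1, rose by 0.22 ± 0.042 (limma adjusted p 0.0230). Jun changed by -0.37 ± 0.085 (limma adjusted p 0.0378), a call lost once the medians of the tested genes were aligned (adjusted p 0.0515). Stat3 (0.021), Stat5a (-0.068) and Stat5b (-0.0081), through which cytokines raise Bcl2l1 and Mcl1, did not pass the test. With an array left out, Myc was called in the absence of PBS replicate 1 and in that of rapamycin replicate 3, Atf4 only without rapamycin replicate 3 and Jun only without rapamycin replicate 2.

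**Figure D4:**
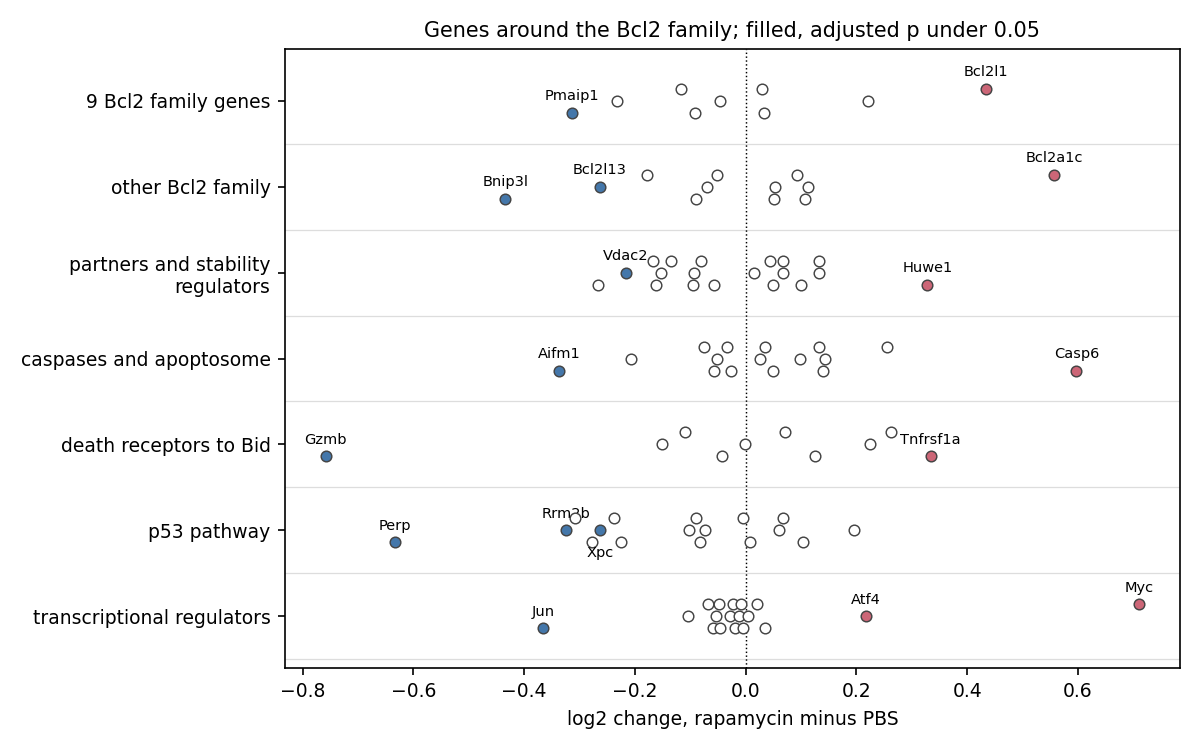
Log2 change with rapamycin of each tested gene (points) in the 9 measured Bcl2 family genes and the 6 lists around them; filled points have a limma adjusted p under 0.05 and are named, and the vertical offset within a row carries no value. Each list holds mostly open points near 0, and its called genes number between 2 and 3.

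The genes whose log2 values followed Bcl2l1 most closely over the 6 arrays were Nfil3, a transcription factor of the bZIP class (Pearson r 0.997), Dok7 (0.997) and Prr13 (0.997). Nfil3 and Prr13 rose, by 0.39 ± 0.054 and 0.52 ± 0.079 on the log2 scale (limma adjusted p 0.00908 and 0.0114), and Dok7, at 0.087 ± 0.041, did not pass the test (limma adjusted p 0.214). The genes closest to Pmaip1 were Hdac4, a histone deacetylase (r 0.999), Ptgr1, which inactivates leukotrienes and prostaglandins (0.997), and the lysosomal chitobiase Ctbs (0.997). All of these fell, Hdac4 by 0.30 ± 0.051, Ptgr1 by 0.46 ± 0.057 and Ctbs by 0.26 ± 0.051 on the log2 scale (limma adjusted p 0.0166, 0.00770 and 0.0233). These correlations describe 6 points that fall into the treatment groups, and 213 tested genes had an r above 0.95 with Bcl2l1 and 268 with Pmaip1.

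Markers of other cells moved beside these genes, and their part in the changes was not tested. Of all genes tested 11.3% were called. For the cell type lists with at least 8 tested genes the share was 45.5% (monocytes), 37.5% (T cells), 33.3% (macrophages) and 30.8% (mature neutrophils). It was 0% for neutrophil granules and progenitors. T cell markers were lower in 3 of 8 tested and higher in 0, with Ubash3a at -0.51 ± 0.10, Cd3g at -0.39 ± 0.086 and Cd8a at -0.27 ± 0.058 (log2; limma adjusted p 0.0253, 0.0335 and 0.0316). The level of all 10 measured T cell markers, summed on a linear scale, ran from 499.9 to 542 with PBS and from 415 to 437 with rapamycin, so the groups did not overlap. Of 2 tested NK cell genes Gzmb fell, with 5 others of that list under the brightness threshold (sums 209 to 223 and 171 to 185). Gzmb is the brightest gene of this list and weighs most in its sums. The other tested gene, Eomes, had a log2 change of 0.037 (limma adjusted p 0.635). Of 3 tested B cell genes Cd79b fell by 0.32 ± 0.058 (limma adjusted p 0.0191), with Cd79a and Ms4a1 under the threshold (sums 238 to 242 and 216 to 235). The mean log2 value of the 8 measured B cell genes overlapped (4.627 to 4.680 with PBS and 4.572 to 4.678 with rapamycin). These lists bear on Bcl2 and Pmaip1, which lymphocytes also express. With an array left out, Ubash3a kept its call only without rapamycin replicate 3, Cd3g only without PBS replicate 1, Cd79b only without rapamycin replicate 2 or 3, and Cd8a in no such fit.

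Of 6 tested erythroid genes, Slc4a1, the anion exchanger of red cells, rose by 0.64 ± 0.087 (limma adjusted p 0.00876) and 5 did not pass the test. Of these, Alas2 (0.35) and Klf1 (0.10) had positive log2 changes, and Epor (-0.11), Tfrc (-0.11) and Gata1 (-0.046) negative ones. The erythroid sums ran from 358 to 364 with PBS and from 386 to 418 with rapamycin. Slc4a1 had the largest change among the tested genes of the list and weighs in these sums, while Tfrc, its brightest gene, did not rise. The mean log2 value of the 8 measured genes, in which Slc4a1 also counts, lay apart as well (5.13 to 5.18 with PBS and 5.23 to 5.31 with rapamycin). Of 4 tested platelet and megakaryocyte genes Itgb3 fell by 0.46 ± 0.098 (limma adjusted p 0.0304), with Pf4 and Ppbp under the threshold (sums 313 to 363 and 295 to 299). The mean log2 value of the 6 measured genes of that list overlapped (5.22 to 5.31 with PBS and 5.21 to 5.27 with rapamycin). These lists bear on Bcl2l1 and Bnip3l, which red cell precursors also use, and on Bcl2l1 in platelets. Slc4a1 lost its call without PBS replicate 2, and Itgb3 kept its own only without PBS replicate 1.

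Of 13 mature neutrophil markers 3 rose and 1 fell, with Il1r2 at 0.70 ± 0.067 and Slpi at 0.48 ± 0.070 (log2; limma adjusted p 0.00463 and 0.0102). The neutrophil sums overlapped between the groups (58171 to 62281 with PBS and 55999.8 to 63063 with rapamycin). Of 11 genes of neutrophil granules and progenitors 0 passed the limma test in the fit of all genes, with 1 higher and 1 lower at an unadjusted p under 0.05. Monocyte markers gave 2 higher and 3 lower of 11, with Cd14 at 1.15 ± 0.10 and Ace at -0.57 ± 0.13 (limma adjusted p 0.00431 and 0.0327). The monocyte sums did not overlap, at 9482 to 10092 with PBS and 10135 to 11433 with rapamycin. Such linear sums give most weight to the brightest genes. The mean log2 value of the 11 monocyte markers overlapped (8.75 to 8.89 with PBS and 8.78 to 8.85 with rapamycin), with a median log2 change of -0.031. Macrophage markers gave 2 higher and 2 lower of 12, with Cd68 at 0.83 ± 0.091 and the iron exporter Slc40a1 at -0.38 ± 0.048 (limma adjusted p 0.00655 and 0.00770). The macrophage sums also lay apart, at 6087 to 7891 with PBS and 8605 to 8886 with rapamycin. The mean log2 value of the 12 macrophage markers overlapped (8.36 to 8.74 with PBS and 8.63 to 8.78 with rapamycin).

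Of 6 tested dendritic cell markers Cd83 rose (0.21 ± 0.052, limma adjusted p 0.0460). Of 3 tested eosinophil markers Alox15 rose (2.47 ± 0.27, limma adjusted p 0.00655). Siglecf (0.031) and Ccr3 (0.061) did not pass the test (limma adjusted p 0.672 and 0.613), and 3 others of that list lay under the brightness threshold. Of 4 basophil and mast cell markers 0 passed the limma test (0 higher and 2 lower at an unadjusted p under 0.05). Of 13 genes of handling stress 3 rose and 4 fell, 53.8% called beside 11.3% of all genes tested. Their log2 changes ran from -1.13 to 0.55, with Atf3 at 0.55 ± 0.070 and Ier2 at -0.55 ± 0.077 (limma adjusted p 0.00770 and 0.00908). Atf3 and several other genes of this list respond within minutes to stress, as Mcl1 and Pmaip1 can. Slpi, Cd68, Slc40a1 and Ier2 lost their calls without PBS replicate 2, Ace kept its own only without PBS replicate 1, and Cd83 was called in no fit with an array left out. Il1r2, Cd14, Alox15 and Atf3 were called in all of those fits.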

How the data were processed

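CD11b-sorted spleen cells of 6 mice (3 per group) were hybridised to 1 Affymetrix array each; the labels call the samples biological replicates and give no scan or batch. The deposited values are log2 intensities made by the authors with RMA (background correction, quantile normalization and summary per probe set) in Affymetrix Expression Console, per the submitters' processing notes; the versions are not given in the sources used here. Probe sets were named from the platform annotation: of 35556, 21789 carry 1 symbol, 1621 several and 12146 are not listed and unnamed here. Symbols were updated through Entrez IDs (21698 matched, none differed). Each of 19938 genes was read by its brightest probe set; 13965 whose mean exceeded log2 4.72 (30th percentile among probe sets with a name) were tested with limma 3.58.1 (lmFit and eBayes, no covariate, R 4.3.3), with Benjamini-Hochberg adjustment over all of them and a threshold of 0.05. Quantile normalization can hide a shift common to all genes. The number of arrays limits the precision.

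On simulated data of the same 13965 genes with 50 genes changed at each size, the fit recovered 37 at a log2 change of 0.3, 49 at 0.6, 49 at 1 and 50 at 2, with 10 false calls among 195. Named were the family genes, the further family genes, the called genes of each pathway list (at most 5) and marker list (at most 2, by the largest moderated statistic), and the 3 genes most correlated with each called family gene. Usp9x, Cycs, Apaf1, Casp8, Mdm2, Alas2, Klf1, Cd3g and the Foxo and Stat genes were added for their roles after their values were seen. The other tested erythroid and eosinophil genes were added to complete their lists. The family genes, lists (219 of 238 entries measured) and tests were chosen with earlier results of these data known. There were 16 alternative settings, of which Bbc3 had a value in 15; the closing section gives their effect. Promoter windows come from RefSeq's GRCm38.p6 table.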

Additional observations from a re-analysis of the deposited data

How the results depend on the processing

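Bcl2l1 and Pmaip1 kept their direction under all 16 alternatives and were each called in 13; the losses came with an array left out. Bak1 and Bmf kept their direction in all 16 and were called in 1, that without rapamycin replicate 3. Mcl1 changed sign in 2, to -0.058 after a further quantile normalization and -0.013 without rapamycin replicate 2, and Bcl2l11 in 1, to -0.039 without rapamycin replicate 1; neither was called. Bbc3 had no value under the stricter filter. Leaving out 1 array gave 0 to 2 of the 9 genes higher and 0 to 2 lower, and 52 to 561 genes higher and 61 to 775 lower among all tested, the fewest without PBS replicate 2 (52 and 61), then rapamycin replicate 1 (148 and 220) and PBS replicate 3 (164 and 243). Such fits also have fewer arrays. Aligning the medians of the tested genes, an alternative chosen after seeing the data, moved the median log2 change of all genes from -0.017 to 0.015 (to -0.039 after a further quantile normalization and -0.040 with array medians aligned), and ended the calls of Bcl2l13 (adjusted p 0.0641), Vdac2 (0.0614) and Jun (0.0515). With no filter Bcl2a1c (0.0653), Bcl2l13 (0.0652), Jun (0.0550) and Cd83 (0.0552) missed the threshold. With the replicate number as a block, 768 genes were higher and 923 lower, with Bcl2l1 (0.0087) and Pmaip1 (0.0225) still called and Vdac2 (0.0605) and Cd8a (0.0501) not; same-numbered arrays deviated together at correlations of 0.263, 0.00995 and 0.0456, so the numbers were not taken to pair the mice, and PBS replicate 2 correlated best with rapamycin replicate 3 (0.0716). Genes near the brightness threshold, Bbc3 the nearest of the 9, carry the least signal over background.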

Other observations

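The deposited log2 values repeat between arrays. Of the genes tested, 36.8% had the same value on 2 or more of the 6 arrays. Bcl2l11 had 4 distinct values, with 7.57 on PBS replicates 2 and 3 and rapamycin replicate 3, and Mcl1, Bid and Bbc3 had 5 each. Over all probe sets, no pair of arrays shared more than 6.99% of its values. Small spreads within a group, such as the SD of 0.014 for Bcl2l11 with PBS, include such repeats.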
